A study of Homo sapiens with 6 samples.

Results

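The ATF4 amino acid response and the unfolded protein response of the endoplasmic reticulum (ER) were followed through 45 genes picked by symbol from a deposited table of 58735 gene rows, and each symbol matched 1 row. They were read as an amino acid arm of 26 genes under the transcription factor ATF4 and an ER arm of 19 sensors, chaperones and degradation genes. The libraries came from T24, an established human line of bladder urothelial carcinoma with a genotype labelled WT, grown with 10% serum. The treated group, 3 libraries, was exposed for 48 h to TGF-β1 (10 ng/ml), and the control group, also 3 libraries, was not; all were collected on day 2. TGF-β1 is a secreted cytokine that signals through SMAD transcription factors. T24 is a single line, and nothing in the labels says that replicates came from separate cultures; every p-value therefore rests on the spread among 6 samples that may differ for technical reasons alone.

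Cells answer a shortage of amino acids, or unfolded protein in the ER, by phosphorylating the translation factor eIF2, which slows protein synthesis while the ATF4 mRNA is translated more. ATF4 pairs with other basic leucine zipper proteins, C/EBP factors among them, and raises genes that import and make amino acids, charge tRNAs and feed back on the response. Stress in the ER is also sensed by IRE1, which splices the XBP1 mRNA, and by ATF6, which is cleaved to release a transcription factor, and XBP1 and ATF6 raise chaperones and degradation genes. Phosphorylation, splicing and cleavage are not visible in the gene-level values used here.

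The values were FPKM, fragment numbers scaled to gene length and to 1 value per library, which allows levels to be compared between genes. In bulk RNA, fewer cells expressing a gene and less of its RNA per cell cannot be told apart. Libraries held 20703945 to 23678772 fragments on uniquely named genes. Genes known to respond to TGF-β1 separated the groups, as in PMEPA1, an inhibitor of SMAD signalling, at 63.6 to 75.3 FPKM in TGF-β1 libraries and 12.4 to 15.2 FPKM in control libraries. The keratins KRT8 and KRT18 of simple epithelia were at or above 185 FPKM in every library, while the urothelial markers GATA3, UPK2, UPK3A, KRT5 and KRT20 stayed at or below 0.323 FPKM. KRT7, a keratin from the same list of checks, was expressed, at 8.89 to 11.6 FPKM with TGF-β1 and 11.4 to 18.0 FPKM in control. Vimentin (VIM), also on it, was high at 124 to 159 FPKM with TGF-β1 and 123 to 139 FPKM in control. Of 10 markers of leukocytes, endothelium and fibroblasts, none exceeded 0.574 FPKM. Libraries differed in a trend with GC content, the share of G and C bases in a transcript. The Spearman correlation between GC content and a gene's log2 difference from the mean library, over 11292 genes, was -0.13, -0.52 and -0.59 in TGF-β1 libraries 1, 2 and 3, and 0.68, 0.59 and -0.39 in control libraries 1, 2 and 3. Control library 3 was thus on the side of the TGF-β1 libraries in this measure, and the values without it are given below where they cross the threshold. Without it 29.6% of 11173 genes passed the test used below, against 2.44% with all 6 libraries, so a pass in that setting is not particular to a member.

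Across both arms the clear difference was in SLC7A5, the light chain of the LAT1 transporter for large neutral amino acids, which fell with TGF-β1. It was the only member to pass an adjusted p of 0.05 in limma, fitted on log2(FPKM + 1) over 11363 genes, 2.44% of which passed, 1.14% higher and 1.29% lower. Of 26 amino acid arm genes 22 could be tested, with 0 higher and 1 lower, and all 19 ER arm genes could be tested, with 0 higher and 0 lower. At an unadjusted p under 0.05 there were 1 higher and 9 lower in the amino acid arm and 2 higher and 1 lower in the ER arm, against 11.2% of all tested genes higher and 13.9% lower. Every tested member was at 1 FPKM or more in all 6 libraries, so none entered the test through 1 group alone. The median log2 change was -0.20 in the amino acid arm and 0.07 in the ER arm, against 0.01 over all genes tested.

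**Figure D1:**
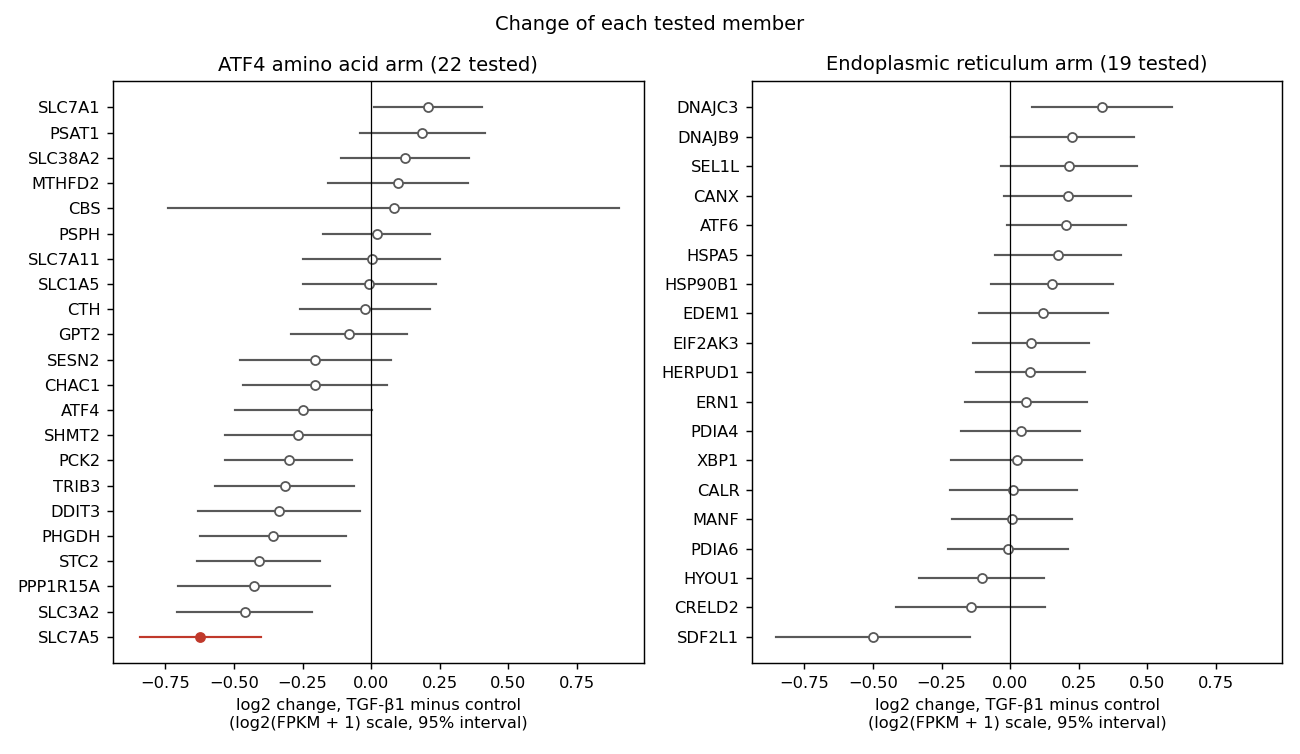
Log2 change of each tested member (TGF-β1 minus control, log2(FPKM + 1) scale) with its 95% interval from limma, 22 members of the amino acid arm on the left and 19 of the ER arm on the right, ordered by change. The filled red point is SLC7A5 at -0.62, the member past an adjusted p of 0.05, and open points did not pass.

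The transporters opened the amino acid arm with its largest change. SLC7A5 (ENSG00000103257.8, chromosome 16 at 87830023 to 87869488 in GRCh38, minus strand) was measured at 105, 96.2 and 106 FPKM in TGF-β1 libraries 1, 2 and 3, against 165, 162 and 147 FPKM in control libraries 1, 2 and 3. All TGF-β1 libraries lay below all control libraries, with control library 3 the nearest to them. The means were 102 ± 5.24 FPKM with TGF-β1 and 158 ± 10.1 FPKM in control (SD, n = 3 each), or 64.7% of the control mean. The log2 change was -0.62 (SE 0.10, 95% interval -0.84 to -0.40, adjusted p = 0.0081 by limma). It was -0.42 (adjusted p = 0.016) when each library's loess trend on GC content and on gene length was subtracted, called GC correction here, and SLC7A5 transcripts have a GC content of 61.1%. The call was lost without TGF-β1 library 2 (adjusted p = 0.066) or control library 1 (0.060), and with no filter on low genes (0.11). Its pseudogene SLC7A5P1, from which short reads could be confused with it, stood at 1.35 FPKM with TGF-β1 and 1.42 FPKM in control.

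SLC3A2 encodes 4F2hc, the heavy chain that carries SLC7A5 and SLC7A11 to the cell surface. It had 44.5, 37.9 and 43.6 FPKM in TGF-β1 libraries and 59.4, 64.1 and 51.4 FPKM in control libraries. These groups did not overlap either, and control library 3 was again the lowest of the controls. The log2 change of -0.46 (SE 0.11, 95% interval -0.71 to -0.22) did not pass (adjusted p = 0.056), and it did without control library 3 (-0.55, adjusted p = 0.0099) and in limma's voom on whole fragments recovered from the FPKM (-0.47, adjusted p = 0.0094). The ratio of SLC7A5 to SLC3A2, in FPKM, was 2.44 ± 0.0936 in TGF-β1 libraries and 2.72 ± 0.166 in control libraries (SD, n = 3 each). The groups overlapped in this ratio, with TGF-β1 library 2 at 2.537 and control library 2 at 2.535.

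The promoter windows of these transporter genes and of ASNS, described below, are printed. They belong to the member that changed, to its partner and to the best known ATF4 target, which had few fragments here. Each window covers 300 bases, 250 before and 50 after a start in RefSeq on GRCh38.p14, 5′ to 3′ on the gene's strand. Capitals mark matches to the core of the C/EBP-ATF response element (CARE), TGATGNAA, searched on both strands, and any base at N stays in lower case.
SLC7A5, chr16:87869458-87869757, minus strand: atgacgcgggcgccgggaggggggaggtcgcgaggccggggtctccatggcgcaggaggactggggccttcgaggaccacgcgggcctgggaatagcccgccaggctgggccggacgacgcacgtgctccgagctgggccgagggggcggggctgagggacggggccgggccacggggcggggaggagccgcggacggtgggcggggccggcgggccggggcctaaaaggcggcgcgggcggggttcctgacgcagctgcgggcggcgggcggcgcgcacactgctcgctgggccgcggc
SLC3A2, chr11:62881449-62881748, plus strand: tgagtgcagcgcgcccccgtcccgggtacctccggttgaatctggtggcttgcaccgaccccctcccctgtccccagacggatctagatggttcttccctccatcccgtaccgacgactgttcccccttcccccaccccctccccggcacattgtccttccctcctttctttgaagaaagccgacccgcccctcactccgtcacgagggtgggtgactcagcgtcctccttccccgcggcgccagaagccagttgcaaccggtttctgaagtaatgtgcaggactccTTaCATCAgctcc
ASNS, chr7:97872359-97872658, minus strand: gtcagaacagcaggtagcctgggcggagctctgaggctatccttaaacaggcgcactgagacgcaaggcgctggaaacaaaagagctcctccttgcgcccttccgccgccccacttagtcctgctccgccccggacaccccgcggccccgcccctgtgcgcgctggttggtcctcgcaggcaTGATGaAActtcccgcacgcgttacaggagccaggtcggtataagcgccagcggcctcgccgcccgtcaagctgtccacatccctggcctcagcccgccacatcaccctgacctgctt
The ASNS window held the match TGATGAAA at bases -68 to -61 from the start, and the SLC3A2 window held 1 on the other strand at bases 38 to 45, after the start, in 1 of its 3 windows. The SLC7A5 window held none, which says only that these letters are not in those 300 bases. Of 20 amino acid arm genes with a window, 5 had a match (ASNS, SLC3A2, SLC7A1, CHAC1 and SLC1A5), or 25.0%, as had 1 of 19 ER arm genes (HERPUD1) and 4.46% of all 27305 genes with a window.

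The other transporters did not pass the test. SLC7A11, the light chain of the cystine-glutamate exchanger, was at 2.40, 2.12 and 2.37 FPKM with TGF-β1 and 2.06, 2.03 and 2.84 FPKM in control, with overlapping groups and a log2 change of 0.0014 (95% interval -0.25 to 0.25, adjusted p = 0.99). SLC7A1, which carries arginine and lysine, was the single member of the arm with all TGF-β1 libraries above all controls, at 23.0 to 23.2 FPKM against 18.6 to 21.3 FPKM in control (log2 change 0.21, adjusted p = 0.18, and 0.031 without control library 3). SLC38A2, a carrier of small neutral amino acids, stood at 91.7 to 94.6 FPKM with TGF-β1 and 78.6 to 97.2 FPKM in control, and the glutamine carrier SLC1A5 at 37.6 to 40.4 FPKM with TGF-β1 and 33.6 to 43.8 FPKM in control. SLC38A2 and SLC1A5 thus overlapped between groups, and the sign of each turned after GC correction, to -0.04 for SLC38A2 and 0.23 for SLC1A5.

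**Figure D2:**
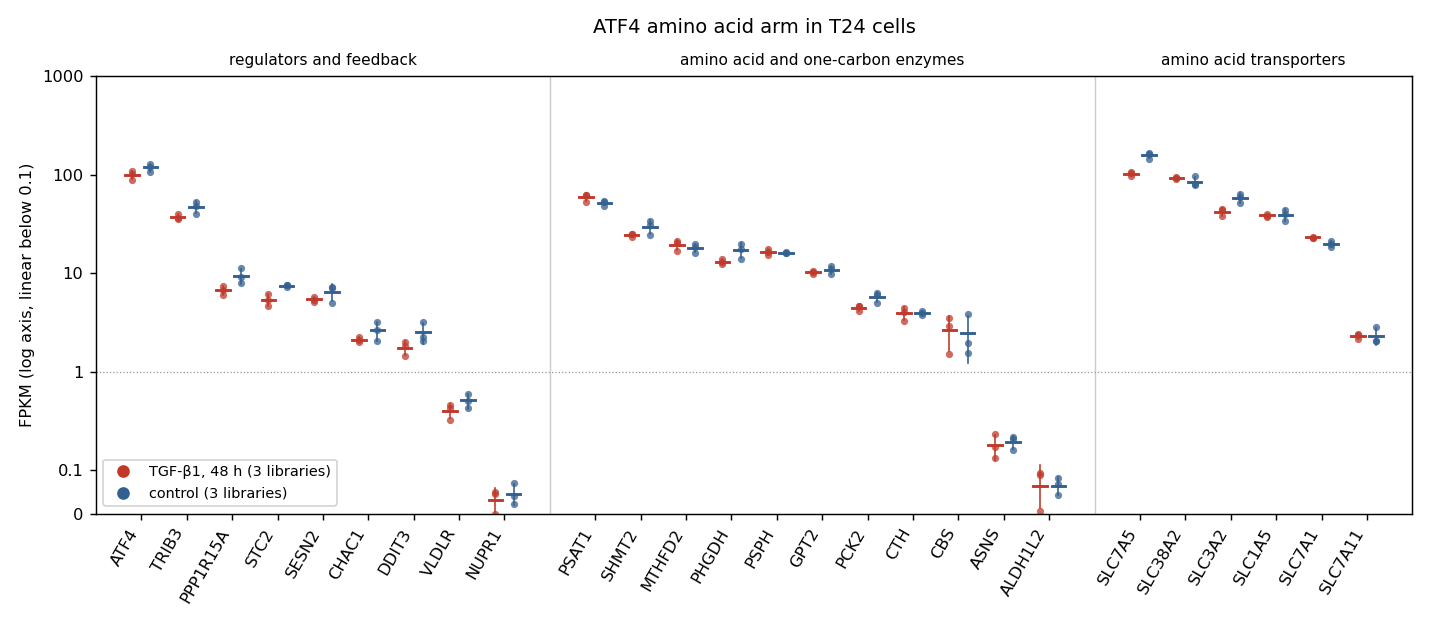
FPKM of the 26 amino acid arm genes in each library, on a log axis that is linear below 0.1, with TGF-β1 libraries in red left of control libraries in blue. Points are libraries, short bars means and vertical lines SD (n = 3 each). The dotted line marks 1 FPKM, and VLDLR, NUPR1, ASNS and ALDH1L2 lie below it in every library.

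Among the regulators, ATF4 itself was abundant. It was at 109, 101 and 89.5 FPKM in TGF-β1 libraries and 121, 129 and 107 FPKM in control libraries, so TGF-β1 library 1 lay above control library 3 and the groups overlapped. The log2 change was -0.25 (95% interval -0.50 to 0.0016, adjusted p = 0.20). It was -0.07 (adjusted p = 0.62) after GC correction, and -0.32 (adjusted p = 0.047) without control library 3.

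TRIB3, a pseudokinase induced by ATF4 that restrains it, had 35.6, 36.7 and 40.2 FPKM with TGF-β1 and 48.0, 53.3 and 40.3 FPKM in control. The groups were parted by the narrow gap between TGF-β1 library 3 and control library 3 (log2 change -0.32, adjusted p = 0.14, and 0.015 without control library 3). DDIT3, which encodes the stress factor CHOP, was low at 1.82, 1.44 and 2.00 FPKM with TGF-β1 and 2.26, 3.18 and 2.05 FPKM in control, again parted only by a narrow gap to control library 3 (log2 change -0.34, adjusted p = 0.16). DDIT3 overlaps MARS on the opposite strand, which averaged 34.0 FPKM in both groups, and since it is unknown whether the counting used strand, their fragments may not be fully separated.

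PPP1R15A, which brings a phosphatase to eIF2 and so ends the response, was at 7.37, 6.77 and 5.94 FPKM with TGF-β1 and 9.11, 11.2 and 7.88 FPKM in control. STC2, a secreted glycoprotein induced by ER stress, was at 6.11, 4.68 and 5.38 FPKM with TGF-β1 and 7.66, 7.19 and 7.53 FPKM in control. In both genes every TGF-β1 library was below every control library, and for STC2 control library 3 sat among the other controls. PPP1R15A changed by -0.43 (SE 0.13, adjusted p = 0.092) and STC2 by -0.41 (SE 0.10, adjusted p = 0.061) on the log2 scale. STC2 passed after GC correction (-0.38, adjusted p = 0.041) and PPP1R15A did not (-0.22, adjusted p = 0.17). Without control library 3 both passed, PPP1R15A at an adjusted p of 0.017 and STC2 at 0.029. CHAC1, a glutathione-degrading enzyme, and SESN2, a leucine sensor upstream of mTORC1, had overlapping groups, with log2 changes of -0.21 and -0.20 that became 0.08 and 0.0048 after GC correction. Without control library 3 CHAC1 passed at -0.32 (adjusted p = 0.045) and SESN2 at -0.35 (adjusted p = 0.018).

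All 7 tested regulators thus had log2 changes below 0 in the values as deposited, with a median of -0.32, and 5 of 7 after GC correction, with a median of -0.08. The median GC content of their transcripts was 58.8%, against 48.1% over all genes tested. VLDLR, a lipoprotein receptor, stood at 0.325 to 0.455 FPKM with TGF-β1 and 0.421 to 0.598 FPKM in control. NUPR1, a small stress-induced nuclear protein, had 12 fragments in all in the TGF-β1 libraries and 17 in the control libraries. Neither reached the 1 FPKM needed for the test, and for NUPR1, where 3 fragments correspond to 0.022 to 0.025 FPKM, a change was not detectable at this depth.

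None of the 9 tested enzymes passed. PHGDH, which makes the first step of serine synthesis, had 13.9, 13.0 and 12.3 FPKM in TGF-β1 libraries and 17.7, 19.8 and 14.1 FPKM in control libraries. All TGF-β1 values were lower, with control library 3 close above them, and the log2 change of -0.36 (SE 0.12, 95% interval -0.63 to -0.09) did not pass (adjusted p = 0.12). It kept that size after GC correction (-0.35, adjusted p = 0.14) and passed without control library 3 (-0.49, adjusted p = 0.010). PSAT1, the next enzyme, was at 53.0, 62.6 and 62.8 FPKM with TGF-β1 and 48.7, 52.9 and 54.5 FPKM in control, overlapping through TGF-β1 library 1 (log2 change 0.19, adjusted p = 0.27). PSPH, the last, was level at 15.4 to 17.5 FPKM with TGF-β1 and 16.01 to 16.4 FPKM in control, with a 95% interval of the log2 change of -0.18 to 0.22.

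SHMT2, the mitochondrial enzyme that turns serine into glycine, had 25.1, 23.4 and 24.8 FPKM with TGF-β1 and 31.0, 34.1 and 24.4 FPKM in control. Control library 3 lay within the TGF-β1 range, and the log2 change was -0.27 (adjusted p = 0.20, and 0.013 without control library 3). PCK2, mitochondrial phosphoenolpyruvate carboxykinase, had 4.13, 4.65 and 4.64 FPKM with TGF-β1 and 6.004, 6.33 and 4.95 FPKM in control. Its groups did not overlap, and its log2 change of -0.30 (adjusted p = 0.13, and 0.016 without control library 3) was -0.08 after GC correction. The folate enzyme MTHFD2, the aminotransferase GPT2 and the cystathionine lyase CTH had overlapping groups, with log2 changes of 0.10, -0.08 and -0.02 and adjusted p of 0.60 or above.

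ASNS, asparagine synthetase, was counted at a very low level in T24 under both conditions. It was at 0.231, 0.131 and 0.170 FPKM in TGF-β1 libraries and 0.160, 0.208 and 0.214 FPKM in control libraries, with overlapping groups and 54 fragments in all in the TGF-β1 libraries and 59 in the control libraries. That is far under the level of ATF4 and of PSAT1, on the same length-scaled measure, and it left ASNS out of the test. A pseudogene on the opposite strand within ASNS averaged 1.26 FPKM with TGF-β1 and 1.18 FPKM in control. A processed transcript on the same strand also overlaps ASNS, at 0.032 FPKM with TGF-β1 and 0.017 FPKM in control. How fragments shared by overlapping genes were counted is unknown, so fragments of ASNS may be missing from its value. Whether they are was not tested. ALDH1L2, a mitochondrial folate enzyme, was lower still, with 36 fragments in the TGF-β1 libraries and 37 in the control libraries. CBS, the enzyme ahead of CTH in cysteine synthesis, has a near-identical annotated copy, CBSL, and CBS alone took 44.7% to 63.5% of their summed FPKM in TGF-β1 libraries and 29.6% to 60.7% in control libraries, so its own level is uncertain. The sum was 5.04 ± 1.51 FPKM with TGF-β1 and 5.44 ± 0.895 FPKM in control (SD, n = 3 each).

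By count, 8 of the 22 tested members of the amino acid arm had all TGF-β1 libraries below all controls and 1 had them above, against 12.5% of all tested genes below and 14.6% above. The mean of log2(FPKM + 1) over those 22 genes was 3.95, 3.88 and 3.97 in TGF-β1 libraries and 4.08, 4.16 and 4.03 in control libraries. Without TGF-β1 library 1 there were 2 past an adjusted p of 0.05, against 3.28% of all genes, and without control library 3 there were 11 lower and 1 higher, in a setting where 29.6% of 11173 genes passed, 12.8% higher and 16.8% lower. After GC correction there were 2 lower, SLC7A5 and STC2, against 1.62% of all genes lower, and the median of the arm was -0.06. With GC correction and control library 3 left out there were 2 lower and 1 higher, beside 7.98% of all genes in either direction.

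The ER arm showed no member past the threshold (smallest adjusted p 0.11, for SDF2L1), while voom passed 1, SDF2L1, as lower, against 5.83% of all genes lower by voom. The sensors were expressed at low to moderate levels. ERN1, the gene of IRE1, had 1.39, 1.36 and 1.26 FPKM with TGF-β1 and 1.30, 1.09 and 1.36 FPKM in control. EIF2AK3, the gene of the eIF2 kinase PERK, had 3.33, 3.26 and 3.82 FPKM with TGF-β1 and 3.17, 3.06 and 3.47 FPKM in control. ATF6 had 11.4, 12.5 and 13.6 FPKM with TGF-β1 and 10.2, 10.3 and 11.6 FPKM in control. Each of the sensors overlapped between the groups, and their log2 changes were 0.06, 0.08 and 0.20 in that order, with adjusted p of 0.74, 0.62 and 0.22. XBP1, summed over spliced and unspliced forms, stood at 48.7, 48.8 and 59.8 FPKM with TGF-β1 and 48.3, 54.3 and 51.7 FPKM in control, with overlapping groups (log2 change 0.02, 95% interval -0.22 to 0.26).

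The chaperones were among the most abundant members. HSPA5, which encodes BiP, the Hsp70 of the ER, had 243, 258 and 270 FPKM in TGF-β1 libraries and 211, 234 and 237 FPKM in control libraries. The groups did not overlap, and the log2 change of 0.18 (SE 0.10, 95% interval -0.05 to 0.41) did not pass (adjusted p = 0.30). HSP90B1, which encodes GRP94, likewise had all TGF-β1 libraries above the controls, at 129, 132 and 132 FPKM against 108, 119 and 127 FPKM in control (log2 change 0.15, adjusted p = 0.34). In HSPA5 and HSP90B1 the gap between TGF-β1 library 1 and control library 3 was narrow. They were the 2 of 19 ER arm genes with all TGF-β1 libraries above all controls, and 0 had them below. Over all tested genes 14.6% were above and 12.5% below. CALR, the calcium-binding lectin calreticulin, was the most abundant of the 45 genes and level at 394 to 413 FPKM with TGF-β1 and 377 to 432 FPKM in control (95% interval -0.22 to 0.24). CANX, its membrane-bound relative calnexin, was at 133, 141 and 140 FPKM with TGF-β1 and 110, 115 and 133 FPKM in control, where control library 3 reached the TGF-β1 range (log2 change 0.21, adjusted p = 0.23).

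The disulfide isomerases PDIA4 and PDIA6, the nucleotide exchange factor HYOU1 and the secreted factors MANF and CRELD2 overlapped between groups. Their log2 changes ran from -0.14 for CRELD2 to 0.04 for PDIA4, with adjusted p of 0.46 or above. CRELD2 averaged 7.05 FPKM with TGF-β1 and 7.89 FPKM in control. It overlaps ALG12 on the opposite strand, at 3.77 and 3.96 FPKM in the same order, so their fragments may not be fully separated. DNAJC3, a cochaperone of HSPA5 that also inhibits eIF2 kinases, had 11.2, 13.1 and 12.1 FPKM with TGF-β1 and 8.43, 8.80 and 11.2 FPKM in control (log2 change 0.33, adjusted p = 0.13). DNAJB9, the cochaperone most closely tied to IRE1, had 3.62, 4.22 and 4.51 FPKM with TGF-β1 and 3.17, 3.66 and 3.28 FPKM in control (log2 change 0.23, adjusted p = 0.20). For both cochaperones the lowest TGF-β1 library fell within the control range. DNAJB9 overlaps PNPLA8 and THAP5 on the opposite strand, at 3.87 and 3.11 FPKM with TGF-β1 and 3.69 and 2.40 FPKM in control, so its fragments may not be fully separated from theirs.

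SDF2L1, a small ER protein that works with DNAJB cochaperones, had the largest change in the arm and did not pass. It was at 66.5, 60.1 and 56.2 FPKM with TGF-β1 and 97.3, 101 and 65.5 FPKM in control, so control library 3 lay inside the TGF-β1 range. The log2 change of -0.50 (SE 0.16, 95% interval -0.85 to -0.15, adjusted p = 0.11) was -0.70 (adjusted p = 0.0060) without control library 3 and -0.13 (adjusted p = 0.27) after GC correction. At 65.5% its transcript had the highest GC content of the tested members.

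**Figure D3:**
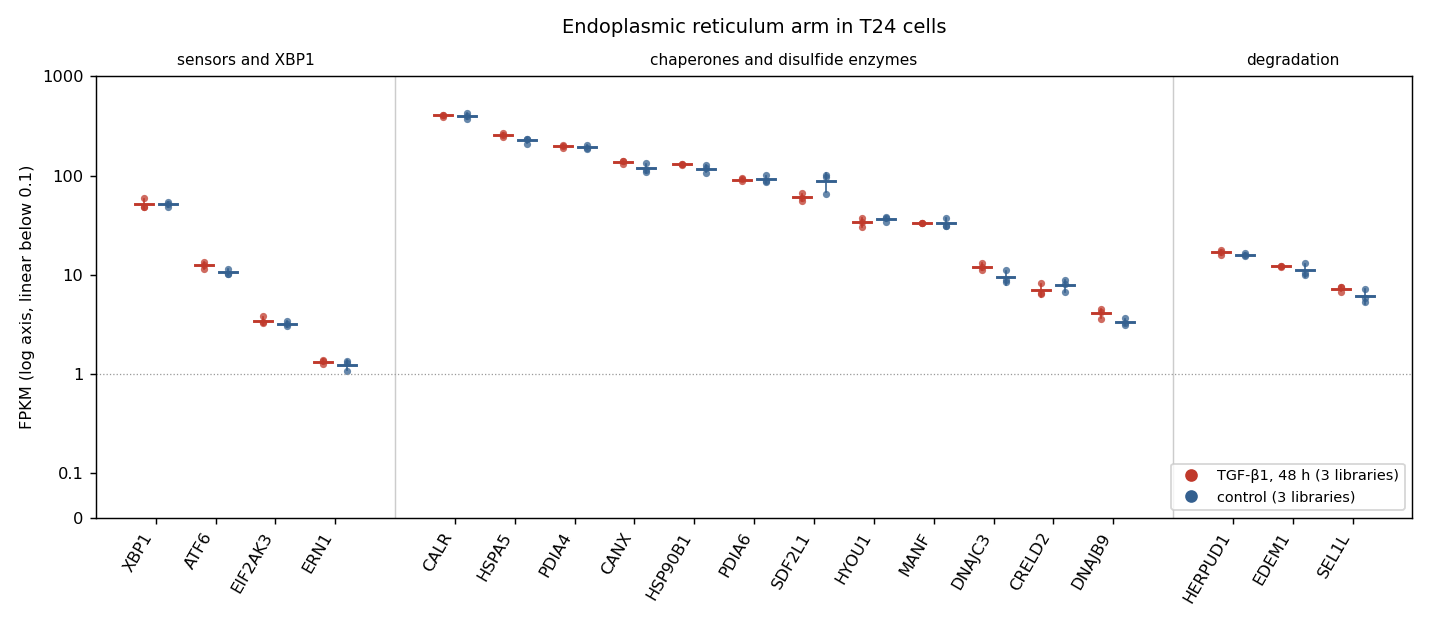
FPKM of the 19 ER arm genes in each library on a log axis, drawn as for the amino acid arm, with TGF-β1 libraries in red left of control libraries in blue, means and SD (n = 3 each). SDF2L1 shows the widest control spread of the chaperones relative to its mean, and CALR and HSPA5 the highest levels.

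The degradation genes completed the arm without a member past the threshold. HERPUD1, a ubiquitin-like organizer of the degradation complex, was at 15.7 to 17.8 FPKM with TGF-β1 and 15.5 to 16.7 FPKM in control, and EDEM1, a mannosidase-like lectin, at 12.1 to 12.3 FPKM with TGF-β1 and 9.99 to 13.1 FPKM in control. SEL1L, the adaptor of the ubiquitin ligase HRD1, had 6.77, 7.52 and 7.48 FPKM with TGF-β1 and 5.89, 5.30 and 7.30 FPKM in control, with control library 3 between the TGF-β1 libraries. The log2 changes of HERPUD1, EDEM1 and SEL1L were 0.07, 0.12 and 0.21 (adjusted p 0.25 or above). Of the 19 ER arm genes, 16 had a 95% interval that included 0, and none of the 19 intervals reached beyond -0.85 or 0.59. Without control library 3, 4 ER arm genes passed as higher (CANX, DNAJC3, EDEM1 and SEL1L) and SDF2L1 as lower, a count of 5 of 19 beside 29.6% of all genes tested in that setting. With GC correction in that setting 0 passed, beside 7.98% of all genes.

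ATF6 and XBP1 are known to act through short elements in the promoters of many ER genes. The windows of the chaperones HSPA5 and HSP90B1 and of SDF2L1 are printed in the same way, as examples of genes that hold one. SDF2L1 had the largest change in the ER arm and did not pass. Capitals mark the ER stress response element (ERSE), CCAAT and CCACG with 9 bases of any kind between them, or the related ERSE-II, ATTGG and CCACG with 1 base between them, both searched on both strands, and the bases between stay in lower case.
HSPA5, chr9:125241294-125241593, minus strand: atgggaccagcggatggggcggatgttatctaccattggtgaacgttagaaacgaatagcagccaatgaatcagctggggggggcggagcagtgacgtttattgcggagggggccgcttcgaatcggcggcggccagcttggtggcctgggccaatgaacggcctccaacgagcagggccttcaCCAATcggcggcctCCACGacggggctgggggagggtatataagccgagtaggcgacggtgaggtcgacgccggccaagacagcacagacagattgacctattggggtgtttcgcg
HSP90B1, chr12:103930160-103930459, plus strand: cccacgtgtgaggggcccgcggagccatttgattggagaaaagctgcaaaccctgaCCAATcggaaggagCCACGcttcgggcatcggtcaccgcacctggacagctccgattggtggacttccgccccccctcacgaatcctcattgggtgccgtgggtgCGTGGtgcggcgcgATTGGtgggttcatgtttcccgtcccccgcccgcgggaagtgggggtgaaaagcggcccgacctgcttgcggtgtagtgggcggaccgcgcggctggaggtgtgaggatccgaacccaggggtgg
SDF2L1, chr22:21642052-21642351, plus strand: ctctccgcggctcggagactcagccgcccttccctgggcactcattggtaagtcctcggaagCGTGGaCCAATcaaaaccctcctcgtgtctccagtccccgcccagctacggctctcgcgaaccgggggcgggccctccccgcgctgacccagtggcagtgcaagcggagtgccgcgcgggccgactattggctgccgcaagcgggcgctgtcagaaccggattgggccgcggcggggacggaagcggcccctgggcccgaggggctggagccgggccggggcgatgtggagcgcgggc
ERSE was matched in 7 of 19 ER arm genes (PDIA6, CANX, HSPA5, HSP90B1, CALR, XBP1 and CRELD2), or 36.8%, in 0 of 20 amino acid arm genes and in 0.0916% of all 27305 genes. ERSE-II was matched in HYOU1, HERPUD1 and SDF2L1, against 0.0696% of all genes, and a UPRE core, TGACGTGG, in HYOU1 alone, where it overlaps the ERSE-II match, against 0.927%. The genes that share ERSE had log2 changes from -0.14 for CRELD2 to 0.21 for CANX. Those that share ERSE-II ran from -0.50 for SDF2L1 to 0.07 for HERPUD1. Matches to CARE and to these elements lie in the reference sequence, in arms listed for their known part in the responses. A share above that of all genes is therefore no result of these libraries.

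Taken across arms, the change of a member went with the GC content of its transcript. Over the 41 tested members the Spearman correlation between them was -0.73, with -0.46 over 22 in the amino acid arm and -0.86 over 19 in the ER arm, and it was -0.62 over the 11292 tested genes with a GC value. These genes were read from the same libraries, and the correlations are a description; the part of GC content in the changes was not tested. After GC correction the correlation over the members was -0.21, and the arm medians were -0.06 and 0.05, against -0.20 and 0.07 as deposited. The correction subtracts the GC trend, so a weaker correlation follows from it. Any difference between groups that tracks GC content is removed with that trend, whatever its source. The median GC content was 56.0% in the amino acid arm and 45.8% in the ER arm. SLC7A5, STC2, PHGDH and SLC3A2 were the members that stayed furthest below 0, at -0.42, -0.38, -0.35 and -0.32.

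**Figure D4:**
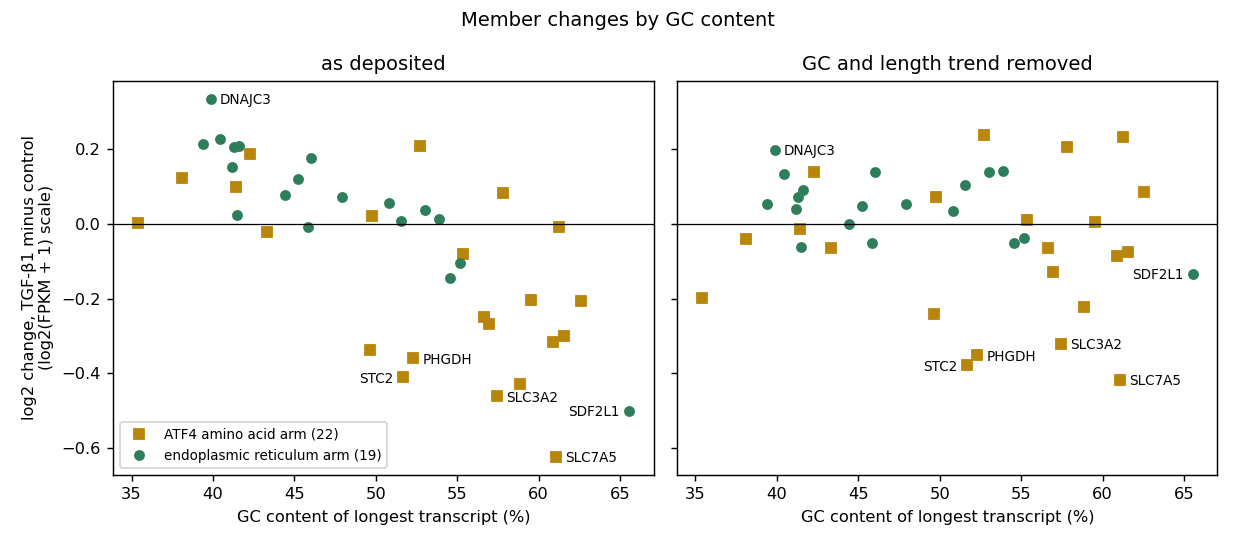
Log2 change (TGF-β1 minus control, log2(FPKM + 1) scale) of the 41 tested members against the GC content of the longest transcript in percent, as deposited on the left and after GC correction on the right. Squares are the amino acid arm and circles the ER arm. The slope on the left (Spearman -0.73) is mostly gone on the right (-0.21), which follows from a correction that subtracts the GC trend. SLC7A5 stays lowest on the right.

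Genes around the 2 arms were counted from 10 neighbouring lists with 155 tested genes, of which 1 rose and 2 fell, all among the basic leucine zipper factors. ATF3, a repressor that acts beside ATF4 and is also a TGF-β target, was at 5.90, 5.12 and 6.02 FPKM with TGF-β1 and 3.54, 3.59 and 3.56 FPKM in control, and rose by 0.55 on the log2 scale (SE 0.09, adjusted p = 0.011). CEBPB, an ATF4 partner, was at 49.9, 48.1 and 41.3 FPKM with TGF-β1 and 85.8, 103 and 67.7 FPKM in control (log2 change -0.85, SE 0.15, adjusted p = 0.014). CEBPD, of the same family, was at 41.5, 34.2 and 26.0 FPKM with TGF-β1 and 88.6, 92.4 and 62.0 FPKM in control (log2 change -1.24, SE 0.20, adjusted p = 0.019). In ATF3, CEBPB and CEBPD the groups did not overlap, and all 3 passed after GC correction (adjusted p 0.0057, 0.0083 and 0.0022). The ATF3 call was lost without control library 1 (0.055) or TGF-β1 library 3 (0.052), the CEBPB call without control library 1 (0.052), and the CEBPD call without control library 1, control library 2 or TGF-β1 library 2 (0.056 to 0.091).

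In the other 9 lists no gene passed; over all 155 genes 16 were higher and 13 lower at an unadjusted p under 0.05, beside 11.2% and 13.9% of all genes tested, and voom passed 11, beside 9.33% of all genes. Of 20 cytosolic aminoacyl-tRNA synthetases, which charge tRNAs and are ATF4 targets in part, 3 were higher and 2 lower at an unadjusted p under 0.05, shares close to those over all genes, with a median log2 change of 0.01. Of 14 eIF2 kinase, eIF2 and eIF2B genes 2 were higher at that level, and the list's median was 0.09. The remaining lists of enzymes, transporters, disulfide isomerases, ER degradation genes, the translocon, the COPII coat and the cytosolic heat shock chaperones had medians from -0.01 to 0.16, beside 0.01 over all genes tested. Among them SSR3, a translocon-associated protein, came nearest, at 49.2, 54.8 and 61.4 FPKM with TGF-β1 and 37.6, 40.2 and 44.0 FPKM in control (log2 change 0.43, adjusted p = 0.065).

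**Figure D5:**
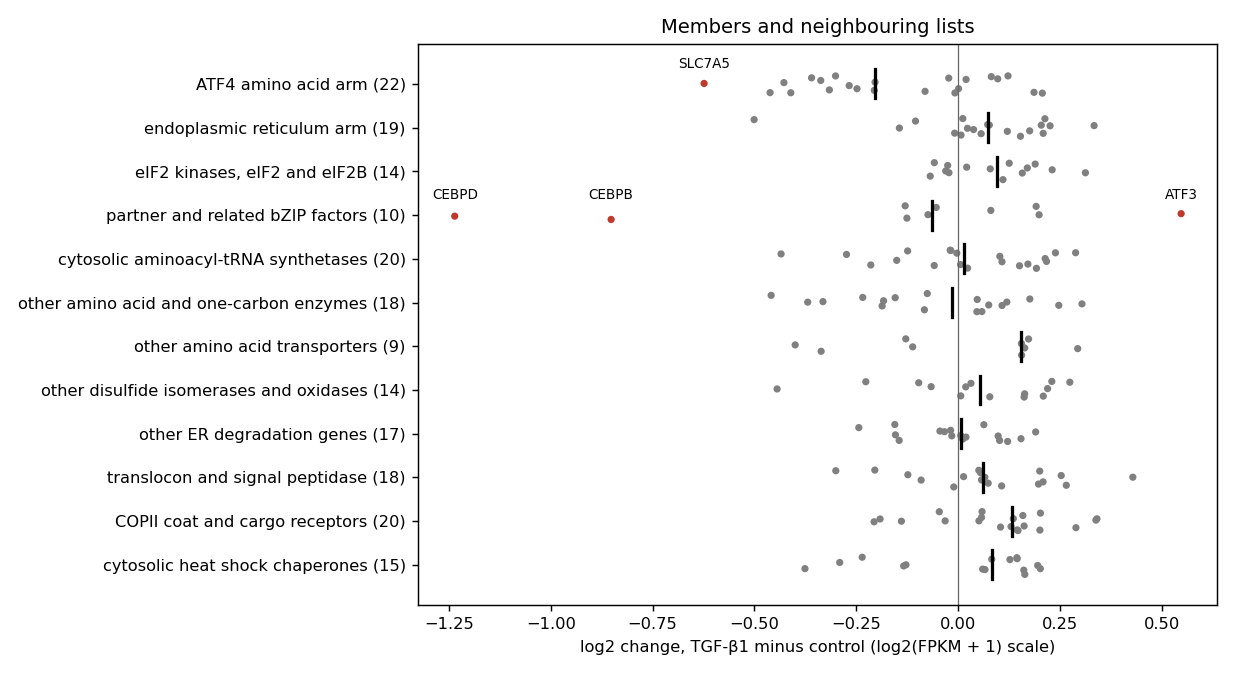
Log2 change (TGF-β1 minus control, log2(FPKM + 1) scale) of every tested gene in the 2 arms and the 10 neighbouring lists, with the number tested in parentheses. Each point is a gene, spread vertically at random, black bars are list medians, and red points (SLC7A5, CEBPD, CEBPB and ATF3) passed an adjusted p of 0.05.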

How the data were processed

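The authors deposited FPKM for 6 libraries in 1 table, which the 6 files of single libraries repeat; per the submitters' processing notes HISAT2 2.0.5, featureCounts 1.5.0-p3 and hg38 were used. Which annotation release, strand setting and trimming they used is not given in those notes or the labels. The first 11 rows, mapping totals, were left out.

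Gene lengths, types, positions and GC content (longest transcript) came from GENCODE 29 (GRCh38), matched by symbol. FPKM times length and 1 value per library gave whole fragments, to within 0.05, for 126560 of 126561 values above 0. The library values, as totals, were 0.964 (control library 2) to 1.036 (control library 3) times the fragments on uniquely named genes. limma 3.58.1 (R 4.3.3) tested log2(FPKM + 1), a scale that understates changes of low genes, using trended and robust variance estimation, over 11363 genes at 1 FPKM or more in at least 3 libraries, adjusted by Benjamini-Hochberg. Adjusted p-values are from this fit unless another setting is named. The procedure was tested on simulated data with 11132 genes. At a simulated 1.25-fold difference it recovered 9.52% of 63 genes. Recovery was 75.3% (77 genes) at 1.5-fold and 91.5% (59 genes) at 2-fold, beside 17 false calls among the 11132 genes. Recovery in libraries with GC trends like those found here (Spearman -0.59 to 0.68) was not tested. The recovered shares and the false calls therefore belong to the simulated data and may differ in the 6 libraries. Most simulated differences of 1.25-fold were missed, so a gene that did not pass may still differ by that much. Replicates of a group differed by more than sampling noise, with chi-square values of 6.50 to 28.9 for each degree of freedom.

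Members and lists were chosen with earlier results of these data known. Every library's value was given for members past the threshold, for a fixed set of ATF4, DDIT3, TRIB3, ASNS, PHGDH, PSAT1, SLC7A11, XBP1, HSPA5, HSP90B1, DNAJB9, ERN1, EIF2AK3 and ATF6, and for those with the largest changes up to 24. From neighbouring lists, genes past the threshold were named, and SSR3 was named after its value was seen. Alternatives were another pseudocount, filters, scalings and variance model, a replicate block, GC correction, which subtracts a loess trend (span 0.5) on GC content and on gene length, voom, protein-coding genes, leaving out each library and, added after the data were seen, leaving out control library 3 with GC correction.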

Additional observations from a re-analysis of the deposited data

How the results depend on the processing

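The whole-table count of 277 of 11363 genes tested was 15 of 28285 with no filter and 500 of 6705 with 5 FPKM required. It was 1054 of 11296 by voom, 842 of 10003 over protein-coding genes and 892 of 11173 without control library 3 after GC correction. Of 11363 genes, 346 passed with quantile normalization, 410 with upper quartile scaling, 359 with TPM scaling and 479 after GC correction. Leaving out 1 library at a time gave 123 of 11198 (control library 1) to 3307 of 11173 (control library 3). The counts of members below are to be read beside these whole-table counts, which rise and fall with the setting. The whole-table share was 2.44% as reported, 9.33% by voom, 29.6% without control library 3 and 7.98% without it after GC correction. In the amino acid arm, where 1 of 22 tested genes passed, the counts were 0 of 26 with no filter and 4 of 16 at 5 FPKM. Of 22 genes, 2 passed with upper quartile or TPM scaling, 2 after GC correction, 5 by voom and 4 over protein-coding genes. With 1 library left out 0 (control library 1 or TGF-β1 library 2) to 12 (control library 3) of 22 passed, and 3 without control library 3 after GC correction. In the ER arm, with 0 of 19 genes (3 at an unadjusted p under 0.05), 1 passed by voom and over protein-coding genes and 0 to 5 (control library 3) with 1 library left out. Of the neighbouring lists 3 of 155 tested genes passed, against 0 of 167 with no filter and 5 of 136 at 5 FPKM. Of 155 genes, 5 passed with quantile normalization, 11 by voom and 7 over protein-coding genes. With 1 library left out 0 to 45 (control library 3) of 155 passed, and 9 without control library 3 after GC correction. The median of the amino acid arm was -0.093 with no filter, -0.14 with TPM scaling, -0.065 after GC correction (-0.063 also without control library 3) and -0.32 to -0.12 with 1 library left out. That of the ER arm was 0.11 with quantile normalization, 0.14 with TPM scaling and 0.05 to 0.10 with 1 library left out. Why these values move was not tested.

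With the replicate number as a block 767 of 11363 genes passed, with 3 of 22 in the amino acid arm, 1 of 19 in the ER arm and 5 of 155 in the neighbouring lists. The block together with GC correction gave 509, 2, 0 and 5 of the same numbers tested, with an amino acid arm median of -0.065. The labels give no shared culture, same-numbered libraries deviated together at r = 0.25, -0.07 and 0.17 over genes, and TGF-β1 library 2 correlated best with control library 3, so the numbers were not taken to pair the samples.

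Signs turned for 14 genes, none past the threshold in either setting, of which CHAC1 (-0.21) and SESN2 (-0.20) were furthest from 0 as reported. SLC1A5 was 0.054 with quantile normalization, 0.025 with upper quartile, 0.071 with TPM and 0.23 after GC correction (with or without the block). PDIA6 was 0.080, 0.025 and 0.071 in those scalings, CTH 0.0032 with upper quartile and 0.040 with TPM, and SLC7A11 -0.0046 with quantile normalization. After GC correction, with or without the block, SLC7A11 was -0.20, MTHFD2 -0.015, GPT2 0.0096, SLC38A2 -0.039, SESN2 0.0048, CHAC1 0.084 and XBP1 -0.061. With 1 library left out, CTH ranged from -0.096 to 0.076, SLC7A11 from -0.058 to 0.11, CALR from -0.034 to 0.065, PDIA6 from -0.050 to 0.058, SLC1A5 from -0.11 to 0.074, PSPH from -0.023 to 0.066, CBS from -0.11 to 0.36, XBP1 from -0.073 to 0.072 and MANF from -0.036 to 0.094. With GC correction and control library 3 left out, MTHFD2 was -0.0065, SLC38A2 -0.014, SLC1A5 0.22, SLC7A11 -0.17, CHAC1 0.083 and XBP1 -0.086. Genes of about 0.1 FPKM or less, such as NUPR1 and ALDH1L2, are limited by depth, and the limit of 3 fragments covers counting error only.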
